A study of Canis lupus familiaris with 8 samples.

Results

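The NR4A genes encode a family of orphan nuclear receptors, and all 3 members (NR4A1, NR4A2 and NR4A3) were followed here through mechanical stretch of a kidney epithelium. The members are the whole family, found by symbol in a table of 37952 dog genes; the family was picked with earlier results of these data known. All 3 had enough reads to be among the 14571 genes tested. The cells were MDCK GII, an established dog kidney epithelial line of one origin, grown overnight as monolayers on collagen-coated silicone membranes. In 4 wells vacuum stretched the membrane by 18%, evenly along both axes of the sheet, for 2 hours before lysis, and 4 control wells on the same kind of device carry the treatment label Control. No gene was altered and no drug was given in either group. The labels describe the wells as technical quadruplicates spread over separate devices, so every p-value below measures the spread between wells of a single line. The title of the series concerns force on E-cadherin, shedding of EGFR ligands and ERK signalling, and NR4A genes are among the early transcripts that such signalling is known to induce.

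NR4A1 (Nur77), NR4A2 (Nurr1) and NR4A3 (NOR-1) are transcription factors whose ligand pocket is filled by bulky side chains, so their activity is set mainly by how much protein is made and how it is modified. Their transcripts are short-lived and appear within an hour or so of growth factors, cyclic AMP, calcium entry, stress or membrane depolarisation, through binding sites for CREB, MEF2 and serum response factor. As monomers they bind a nuclear receptor half-site with an extended 5′ end, as dimers a palindrome of it, and NR4A1 and NR4A2, but not NR4A3, can also pair with the retinoid X receptors. In kidney and other epithelia they belong to the immediate-early response and feed into metabolism, survival and inflammation.

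Total counts ranged from 27047358 to 32478887 per well. The 7 epithelial markers examined, among them CDH1 and EPCAM, were all above 1 CPM (a read count scaled to a common library total) on average and summed to 4890 to 5476 CPM per control well and to 5165 to 5290 CPM per stretch well. Of 13 markers of fibroblasts, endothelium and immune cells, 3 reached 1 CPM, and COL3A1, DCN, PTPRC and CD3E had 0 counts in every well. Values are per well of lysate, so a change in the number of cells carrying a transcript and a change in the transcript per cell cannot be told apart.

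NR4A1 lies on the plus strand of chromosome 27 (43698715 to 43706655), a span of 7941 bases with 2431 bases of exon in 7 blocks. NR4A2 lies on the minus strand of chromosome 36 (2763654 to 2781495), with 3693 bases of exon. NR4A3 lies on the plus strand of chromosome 11 (57144349 to 57184553), with 6154 bases of exon in 11 blocks. These positions are those of the deposited table and are identical to RefSeq's for the dog assembly UU_Cfam_GSD_1.0. NR4A1 and NR4A3 overlap no other gene of the table. NR4A2 overlaps 1 gene on the opposite strand, LOC119867809, which had 0 counts in all 8 wells. The 3 genes are paralogs, and how reads shared between similar genes were handled is not given in the sources used here.

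NR4A1 was the abundant member and was higher in every stretch well than in any control well. In control replicates 1 to 4 it had 331, 316, 610 and 419 raw counts, or 12.2, 10.2, 20.65 and 13.0 CPM. In stretch replicates 1 to 4 it had 794, 1348, 751 and 1076 counts, or 27.3, 49.8, 25.8 and 33.4 CPM. Control replicate 3 was the high control and stretch replicate 3 the low stretch well, so the third pair was the closest. The mean went from 14.0 ± 4.58 to 34.1 ± 11.0 CPM (SD, n = 4 each), a log2 change of 1.28 ± 0.28 (SE), or 2.43-fold. Between same-numbered wells the ratio of stretch to control was 2.24, 4.87, 1.25 and 2.56 for replicates 1 to 4.

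NR4A2, the member best known for its part in dopamine neurons, was also higher in all 4 stretch wells. Its raw counts were 75, 54, 50 and 62 in control replicates 1 to 4 and 102, 89, 90 and 117 in stretch replicates 1 to 4. In CPM these were 2.75, 1.75, 1.69 and 1.93 in control wells and 3.50, 3.29, 3.09 and 3.63 in stretch wells. The highest control well was therefore below the lowest stretch well, and the stretch wells lay close together. The mean went from 2.03 ± 0.492 to 3.38 ± 0.240 CPM (SD, n = 4 each), a log2 change of 0.74 ± 0.18 (SE). Its ratios within the 4 pairs were 1.27, 1.88, 1.82 and 1.88.

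NR4A3, the longest of the genes, had the largest log2 change and the fewest reads. Its raw counts were 28, 15, 9 and 18 in control replicates 1 to 4, where the count of 9 has an exact Poisson 95% interval of 4.12 to 17.1, and 46, 82, 31 and 38 in stretch replicates 1 to 4. In CPM these were 1.03, 0.485, 0.305 and 0.560 in control wells and 1.58, 3.03, 1.06 and 1.18 in stretch wells. The groups did not overlap, but control replicate 1 and stretch replicate 3 were nearly level. Stretch replicate 2 held the highest value, as it did for NR4A1. The log2 change was 1.52 ± 0.41 (SE), and the ratios within the pairs were 1.54, 6.24, 3.49 and 2.11. The well-to-well coefficient of variation was 51.9% in control and 52.8% in stretch wells, where counting alone would give 23.9% and 14.2%. For NR4A2 in stretch wells it was 7.10%, below the 10.0% that counting gives.

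**Figure D1:**
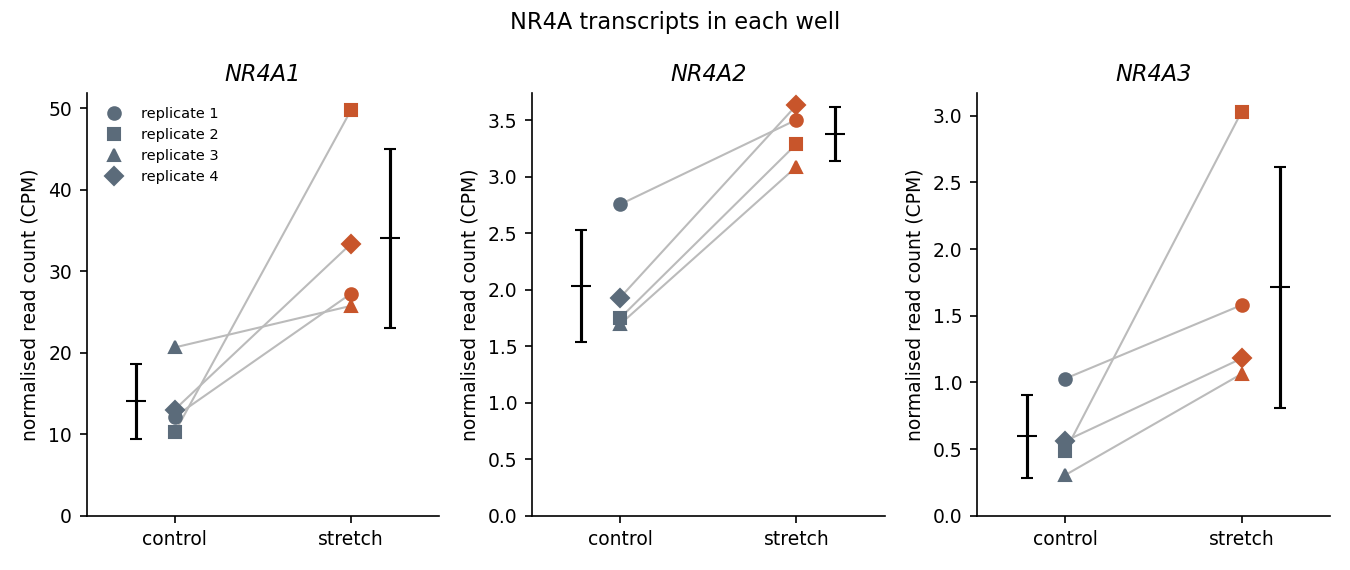
Normalised read count (CPM, linear axis from 0) of NR4A1, NR4A2 and NR4A3 in the 4 control wells (grey) and the 4 stretch wells (orange). Marker shapes give the replicate number, grey lines join equal numbers, and black bars show the mean ± SD; in each panel the lowest stretch well is above the highest control well, and stretch replicate 2 is the highest for NR4A1 (49.8 CPM) and NR4A3 (3.03 CPM).

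All 3 members were thus free of overlap between groups, in the higher direction, while 1.3% of all tested genes were. Each gave a two-sided exact permutation p of 0.0286 on its CPM (4 against 4 wells), the smallest p this design allows. Higher values in 4 of 4 same-numbered pairs were found for all 3, against 8.45% of tested genes. These are 3 genes of one family in the same wells and are not independent replicates of the condition. Among all tested genes, 29 had a log2 change of at least 1 without the block (0.199%), 2 of them NR4A genes, with NR4A3 at place 3, NR4A1 at place 12 and NR4A2 at place 101 by log2 change. Most of the 29 were low genes. A mean of at least 10 CPM was held by 2 of them, NR4A1 at 24.03 CPM and CCN2, a YAP-driven matricellular gene named here because of its values, at 13.5 CPM.

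Adjusted over all 14571 genes, whether a member passed depended on the model. In the edgeR quasi-likelihood test without a block, 0 genes passed at an adjusted p under 0.05 in either direction (0.0% of genes). In that edgeR fit 579 had an unadjusted p under 0.05 (3.97%), among them all 3 members, whose adjusted p were 0.567 for NR4A1, 0.521 for NR4A2 and 0.716 for NR4A3. DESeq2 without a block called 32 genes as higher (0.22% of those tested), and NR4A1 was the one member among them, with an adjusted p of 0.0198 against 0.0678 for NR4A2 and 0.112 for NR4A3. Limma-voom without a block called 0 genes.

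Wells with equal replicate numbers deviated together, as did most other wells within replicates 1 and 2 and within replicates 3 and 4, so fits with the number as a block and with these 2 sets as a block are given beside it. With this replicate block edgeR called 77 genes as higher (0.528%), and here NR4A3 rose, with a log2 change of 1.5 ± 0.33 and an adjusted p of 0.0451. NR4A2 did not pass (0.75 ± 0.18, edgeR adjusted p = 0.0645), nor did NR4A1 (1.27 ± 0.39, edgeR adjusted p = 0.535). The robust estimate gave NR4A1 3.25 degrees of freedom in this fit, against 16.6 for NR4A2 and 16.1 for NR4A3. Limma-voom with the block called 93 genes as higher (0.638%), NR4A1 among them (adjusted p = 0.0106), with 0.0988 for NR4A2 and 0.0772 for NR4A3. NR4A3 did not pass with the block when pair 1, 2 or 4 was left out (edgeR adjusted p = 0.0763, 0.326 and 0.139). The log2 change of each member had a 95% interval above 0 in both edgeR fits, before any correction for the number of genes. Without the block it ran from 0.63 to 1.93 for NR4A1, 0.34 to 1.14 for NR4A2 and 0.63 to 2.42 for NR4A3. With the block it ran from 0.07 to 2.47 for NR4A1, 0.38 to 1.12 for NR4A2 and 0.80 to 2.19 for NR4A3.

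The wells of this series fall into replicates 1 and 2 against replicates 3 and 4, so the change was also read within each set (2 wells against 2). For NR4A1 the log2 change was 1.78 ± 0.45 (SE) in replicates 1 and 2 and 0.82 ± 0.28 in replicates 3 and 4. For NR4A2 it was 0.60 ± 0.26 and 0.90 ± 0.25, and for NR4A3 1.62 ± 0.41 and 1.36 ± 0.46. Each member was higher in both sets, with none past the threshold in either set (edgeR, adjusted p from 0.123 to 0.671), and the difference between the sets was not tested. With a block of only these 2 levels 41 genes were called as higher (0.281%), and NR4A3 passed (edgeR, adjusted p = 0.0221) and the other members did not (0.395 for NR4A1 and 0.0693 for NR4A2).

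**Figure D2:**
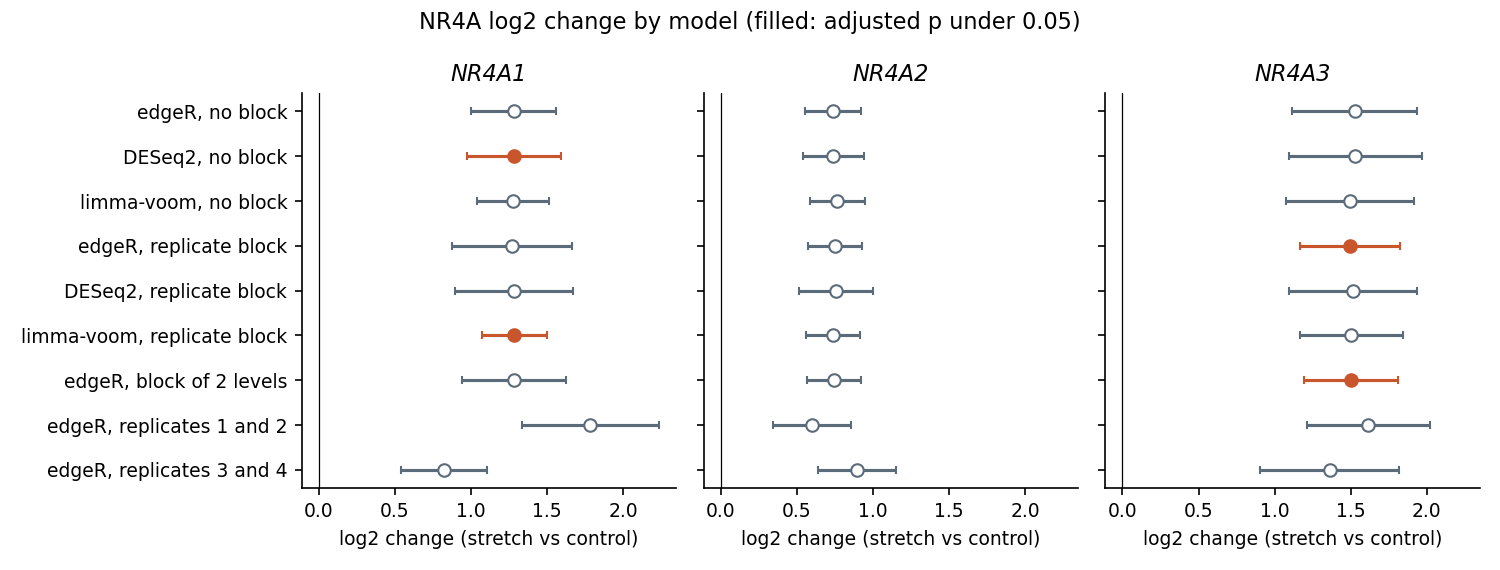
Log2 change of each member after stretch (points, with bars of 1 SE) under 9 models or sets of wells, filled where the adjusted p was under 0.05; DESeq2 with the replicate block gave no adjusted p for NR4A2 and NR4A3. Point estimates from all 8 wells stay near 1.28 for NR4A1, 0.74 for NR4A2 and 1.52 for NR4A3, while the filled points differ between models.

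Levels of the 3 genes were compared with each other per kilobase of exon (RPKM). NR4A1 had 5.77 ± 1.88 RPKM in control wells and 14.0 ± 4.53 in stretch wells (SD, n = 4 each). NR4A2 had 0.550 ± 0.133 and 0.914 ± 0.0649, and NR4A3 had 0.0966 ± 0.0501 and 0.278 ± 0.147 RPKM. The order NR4A1, NR4A2, NR4A3 held in each of the 8 wells. Summed over the family, the level was 6.41 ± 1.82 RPKM in control wells (4.76 to 9.002) and 15.2 ± 4.66 in stretch wells (11.6 to 21.9). NR4A1 supplied from 84.6% to 94.4% of this sum without stretch and from 90.3% to 93.7% after it. NR4A2 made up 5.09% to 12.6% and 4.07% to 7.64%, and NR4A3 never exceeded 2.83%.

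**Figure D3:**
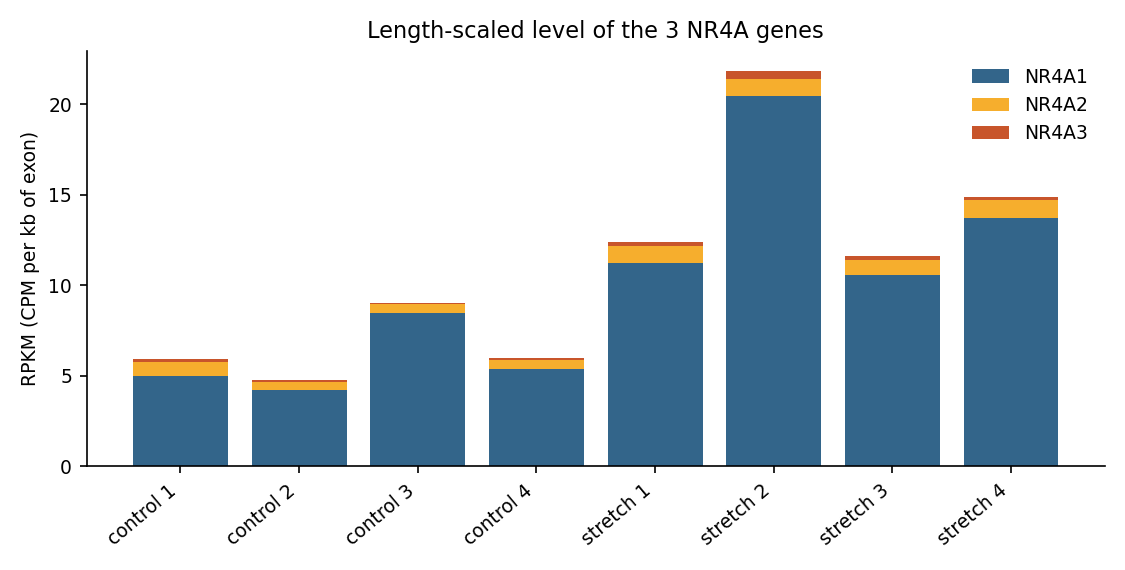
Stacked bars of the RPKM (CPM per kilobase of exon, axis from 0) of NR4A1, NR4A2 and NR4A3 in each of the 8 wells. The stretch wells sum to between 11.6 and 21.9 RPKM and the control wells to between 4.76 and 9.002, with NR4A1 the main part of every bar.

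Whether the members changed by unequal amounts was asked from the ratio of their counts within a well, which needs no library scaling. The log2 ratio of NR4A3 to NR4A2 went from -1.88 ± 0.437 to -1.11 ± 0.691 (SD, n = 4 each), a difference of 0.78 (two-sided exact permutation p = 0.0857, adjusted over 3 ratios 0.257). NR4A1 to NR4A2 went from 2.76 ± 0.618 to 3.29 ± 0.435, a difference of 0.52 (exact permutation p = 0.229, adjusted 0.343). NR4A3 to NR4A1 went from -4.65 ± 1.05 to -4.39 ± 0.380, a difference of 0.25 (exact permutation p = 0.743, adjusted 0.743), which became -0.23 without control replicate 3 and 0.61 without control replicate 1. None of the 3 passed, and single wells moved each of them. Without stretch replicate 2 the difference was 0.45 for NR4A3 to NR4A2, 0.31 for NR4A1 to NR4A2 and 0.14 for NR4A3 to NR4A1. For NR4A1 to NR4A2 it was 0.31 without control replicate 1 and 0.80 without control replicate 3. For NR4A3 to NR4A1 it was 0.16 without stretch replicate 1 and 0.40 without stretch replicate 4. With 4 wells a group this does not show that the members changed alike.

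The rest of the nuclear receptor superfamily gives the setting of these values. Of the 45 other nuclear receptor genes, 42 were matched by symbol, 23 were tested, and 9 had 0 counts in every well. The receptors with the highest level in control wells were PPARG at 43.5 ± 4.38 RPKM, PPARD at 40.9 ± 1.43 and ESRRA at 30.5 ± 1.88 (SD, n = 4), regulators of lipid and mitochondrial metabolism. NR4A1 stood at place 15 by mean RPKM in control wells, within its SD of RARA above it (6.13 ± 0.510) and just under 1 SD above NR2C2 (3.94 ± 0.234). In stretch wells it stood at place 5, below NR1H2 (26.1 ± 1.15) and within its SD of NR2F6 (12.9 ± 1.14). Well by well it held places 9 to 15 among controls and 5 to 9 after stretch. NR4A2 stayed at place 23 or 24 in every well, and NR4A3 held places 25 to 28 among controls and 25 or 26 after stretch, next to VDR (0.183 ± 0.0731 RPKM in control wells).

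The log2 changes of the 23 other tested receptors lay between -0.16 and 0.21 without the block, with a median of -0.0022, beside -0.0032 over all tested genes. In the unblocked fit none reached an unadjusted p under 0.05, and 0 passed under edgeR with the block (smallest adjusted p = 0.434) or under DESeq2 without it. The 3 with the smallest p were NR2F6, NR2F2 and NR2C2, receptors of the COUP-TF and testicular receptor groups, with log2 changes of -0.15 ± 0.08, -0.13 ± 0.08 and -0.12 ± 0.08 (SE). The retinoid X receptor genes that encode the partners of NR4A1 and NR4A2 were present at 12.6 ± 0.828 RPKM (RXRA) and 11.4 ± 0.663 (RXRB) in control wells, with log2 changes of -0.07 and -0.05, and RXRG had 0 counts. Among the 26 receptor genes tested, the 3 NR4A genes therefore held the 3 largest log2 changes.

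**Figure D4:**
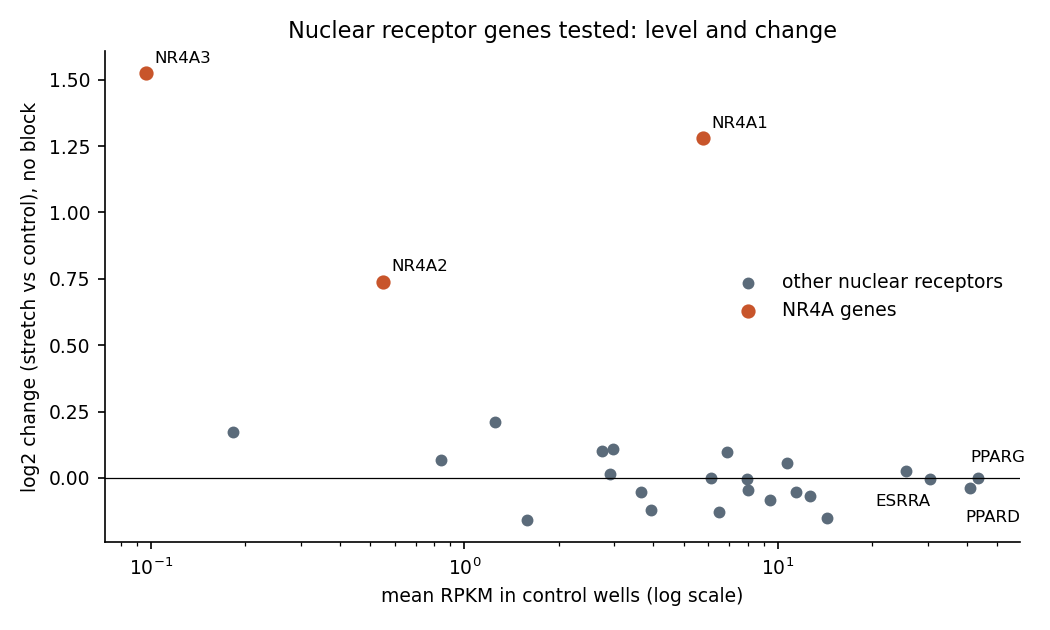
Log2 change after stretch (edgeR, no block) against the mean RPKM in control wells (log axis) for the 26 nuclear receptor genes tested. The 3 NR4A genes (orange) lie at 0.74, 1.28 and 1.52, and the 23 other receptors (grey) lie between -0.16 and 0.21 at all levels.

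The genes that followed each member most closely over the 8 wells were found by Pearson's r of log2 CPM, among genes of at least 1 CPM on average. The wells share their group and, in pairs, their number, so r is a description and carries no p. NR4A1 was followed by FOSL2 (r = 0.982), SIK1 (0.981), CSRNP1 (0.977) and ETS2 (0.975). With the group means removed, r was 0.931, 0.934, 0.922 and 0.901; these genes were chosen for their r over the same wells, so this describes them and adds no support. FOSL2 encodes an AP-1 subunit, SIK1 a salt-inducible kinase that restrains CREB coactivators, CSRNP1 an early nuclear protein and ETS2 an ERK-responsive transcription factor. SIK1 went from 13.6 ± 1.78 to 24.1 ± 4.16 CPM (SD, n = 4), and its edgeR adjusted p of 0.0937 was the smallest of all genes without the block. In edgeR with the block CSRNP1 passed (adjusted p = 0.0294), while FOSL2 (0.296), SIK1 (0.094) and ETS2 (0.206) did not.

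The paralogs were not chosen for their r, so their values are no like-for-like contrast with those genes. The r of NR4A1 over the 8 wells was 0.710 with NR4A2 and 0.717 with NR4A3, and with the group means removed it was -0.20 and 0.13. In control replicate 3, NR4A1 had its highest control value and both other members their lowest. NR4A2 and NR4A3 had an r of 0.873, and 0.622 with the group means removed. The genes closest to NR4A2 were LOC102154238 (r = 0.955), GPRC5C (0.930), NMT2 (0.928), LOC111098242 (0.921) and LOC111096262 (0.921), with log2 changes from 0.14 to 0.37. Those closest to NR4A3 were LONRF2 (r = 0.947), LOC611178 (0.944), LOC119877388 (0.929), SEMA6B (0.927) and ELF3 (0.924), an epithelial ETS factor that went from 124 ± 11.0 to 144 ± 11.6 CPM (SD, n = 4). None of these 10 genes passed with or without the block. NR4A2 and NR4A3 had at most 117 counts per well, so counting error enters their r more than that of NR4A1.

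The known inputs to NR4A transcription were read from a list of 33 genes for CREB and its coactivators, MEF2 and its repressors, serum response factor, ERK, RSK and MSK kinases, PKA and calcineurin. Of the 31 tested, 0 passed without the block and 0 with it, and the median log2 change was 0.012. The unblocked edgeR fit put 2 at an unadjusted p under 0.05, and DESeq2 without the block called 0. Over all tested genes, 3.97% were at that unadjusted p, DESeq2 called 0.275%, and edgeR with the block called 0.7%. The CREB coactivators CRTC1, CRTC2 and CRTC3 had log2 changes of 0.02, -0.13 and 0.01. The 3 with the smallest p without the block were NFATC2, a calcineurin-dependent factor, MEF2A and MEF2D. With the block their log2 changes were 0.42 ± 0.13, 0.21 ± 0.05 and 0.16 ± 0.05 (SE, edgeR adjusted p = 0.215, 0.0683 and 0.265). All 3 overlap a gene on the opposite strand and are uncertain. These are transcript levels, and the activity of these proteins was not measured.

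Other early genes with CREB sites mostly had positive log2 changes, as the family did. Of 26 tested from a list of 29, 24 had a positive log2 change, with a median of 0.43, and 10 had every stretch well above every control well (1.3% of all tested genes). With the replicate block 4 rose and 0 fell (edgeR; 0.7% of all tested genes passed in either direction), against 0 in the unblocked fit, where 12 higher and 1 lower were at an unadjusted p under 0.05 and DESeq2 called 6. Over all tested genes, 2.22% were higher and 1.76% lower at that unadjusted p, and DESeq2 called 0.275%. EGR1, a zinc-finger factor, went from 223 ± 23.7 to 299 ± 43.9 CPM (SD, n = 4; edgeR with the block, adjusted p = 0.00169). BTG2, an antiproliferative factor, went from 57.4 ± 4.67 to 95.3 ± 21.0 CPM (adjusted p = 0.0023). PER2, a clock repressor, went from 4.93 ± 0.717 to 7.72 ± 1.19 CPM (adjusted p = 0.0299), and the stress factor ATF3 from 50.8 ± 15.1 to 77.4 ± 26.0 CPM (adjusted p = 1.6e-04). For ATF3 the groups overlapped, with control replicate 1 at 68.8 CPM and stretch replicate 3 at 54.5 CPM. EGR1 (edgeR adjusted p = 0.0668) and BTG2 (0.338) lost their call under the block of 2 levels. SIK1 and DUSP1, a MAP kinase phosphatase, had log2 changes of 0.82 ± 0.13 and 0.80 ± 0.15 without the block and did not pass with it (edgeR, adjusted p = 0.094 and 0.115). Both passed with DESeq2 without the block (adjusted p = 1.2e-05 and 1.2e-04) and with limma-voom with the block (0.00622 and 0.00452), and SIK1 also with the block of 2 levels (edgeR, 0.0181). PER2, ATF3 and DUSP1 each overlap a gene on the opposite strand. CREM, whose inducible form represses CREB targets, had a log2 change of 0.07.

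For proteins that bind or modify NR4A receptors, no transcript passed. Of 24 tested from a list of 26, 0 passed in edgeR with or without the block, and the median log2 change was -0.04. Before adjustment, edgeR without the block gave 1 of the 24 a p below 0.05, and 3.97% of all tested genes. This count therefore does not set the list apart. DESeq2 without the block called 0 of the list and 0.275% of all tested genes. MDM2, a ubiquitin ligase gene, had 114 ± 7.18 CPM in control and 127 ± 4.18 in stretch wells. Its log2 change in the blocked edgeR fit was 0.16 ± 0.04 (SE, adjusted p = 0.137). RCOR1 is a corepressor recruited by NR4A2, and STK11 is the kinase LKB1 that NR4A1 can hold in the nucleus. Without the block their log2 changes were -0.12 ± 0.07 and -0.09 ± 0.06.

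Of the genes reported in other cell types to be regulated by NR4A receptors, VEGFA and SNAI2 rose after 2 hours in the fit with the replicate block. Of 40 on the list, 25 were tested, and 9 had 0 counts in every well, among them the dopamine genes TH and SLC6A3 and the pituitary gene POMC. The median log2 change was 0.0095. Every stretch well was above every control well for 0 of the 25, against 1.3% of all tested genes. With the block 2 rose and 0 fell in edgeR, where 0.528% of all tested genes were called higher. Without it 0 passed in edgeR, 2 were at an unadjusted p under 0.05 (3.97% of all tested genes), and DESeq2 called 0. VEGFA, the angiogenic factor, went from 21.1 ± 4.29 to 30.4 ± 4.75 CPM (SD, n = 4), which is 0.53 ± 0.06 on the log2 scale in the blocked edgeR fit (adjusted p = 6.1e-04). SNAI2, a factor of epithelial-mesenchymal transition, went from 9.16 ± 2.87 to 14.4 ± 2.81 CPM, which is 0.66 ± 0.11 on the log2 scale in the blocked edgeR fit (adjusted p = 0.00823). Under the block of 2 levels its edgeR adjusted p was 0.297. Both are also targets of other factors. MYC had a log2 change of 0.30 ± 0.07 in the blocked edgeR fit (adjusted p = 0.148) and did not pass in either edgeR fit. It passed in limma-voom with the block (adjusted p = 0.036).

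**Figure D5:**
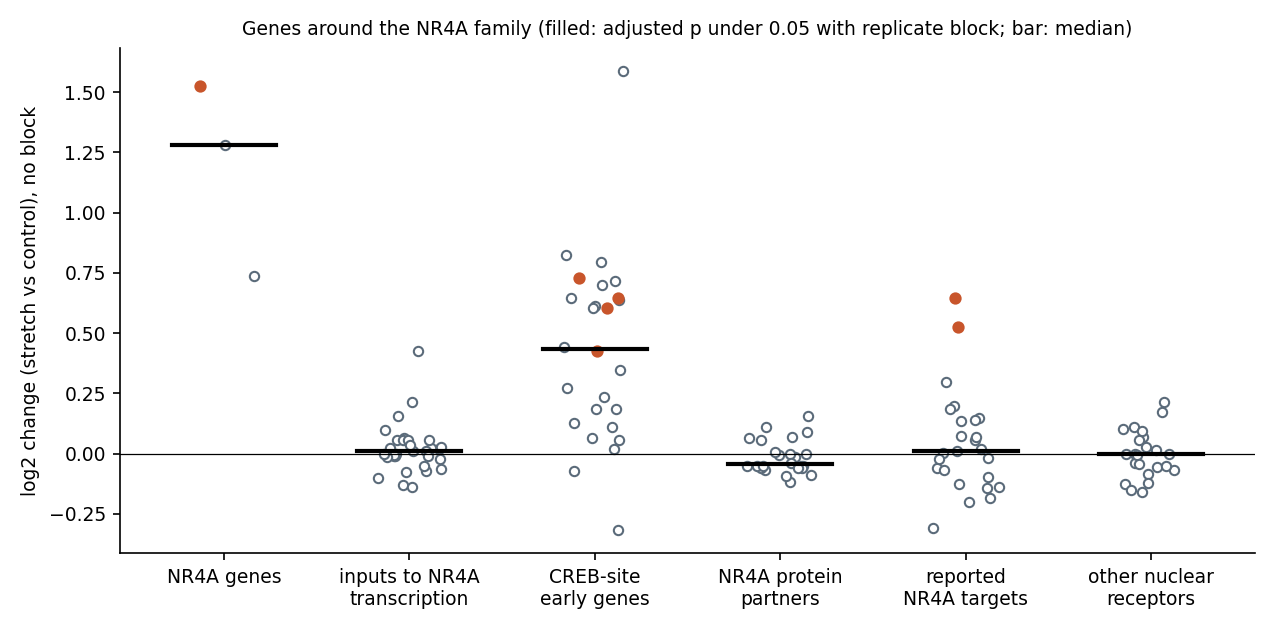
Log2 change after stretch (edgeR, no block) of each tested gene of the NR4A family and of 5 lists, filled where the adjusted p with the replicate block was under 0.05, with a bar at the median. The medians are 1.28 for the 3 NR4A genes and 0.43 for the early genes with CREB sites, and lie between -0.04 and 0.012 for the other 4 lists.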

How the data were processed

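RNA from 8 wells was sequenced as polyA-selected stranded libraries, per the labels. The deposited values are the authors' raw exonic read counts for each gene; the submitters' processing notes name FastQC 0.11.8, Trim Galore 0.6.5, STAR 2.7.3a, Subread and featureCounts. The strand setting, build and treatment of multi-mapping reads are not given in the sources used here. The table has 0 columns belonging to no sample, and 37291 symbols matched RefSeq, all with equal start and end. The exon length column, in bases, is also as deposited.

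Counts were tested in R 4.3.3 with edgeR 4.0.16 (quasi-likelihood, robust, TMM factors, filterByExpr at a minimum count of 10 and total of 15) and adjusted by Benjamini-Hochberg over all tested genes, with 0.05 as the threshold. CPM values are TMM-normalised, RPKM is CPM per kilobase of exon, and log2 CPM used a prior count of 2. The alternatives were DESeq2 1.42.0, limma-voom (limma 3.58.1), other scalings and filters, blocks, and omission of wells or pairs. Models were tested on simulated data. Wells of a group differed by a chi-square per degree of freedom of 5.14 to 23.6, so all were kept. Same-numbered wells deviated together from their group means, with r across genes of 0.108 to 0.328; other pairings gave 0.0701 to 0.243 within replicates 1 and 2 or within 3 and 4, and -0.295 to -0.0857 between these sets. The values thus separate the 2 sets, known from earlier results, better than the numbers within a set; the labels name no shared device.

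The members, the 5 lists (166 genes) and the tests were chosen with earlier results of these data known. Named genes were the members; from each list, those past the threshold with or without the block and the 3 with the smallest p; the 5 closest to each member, of which 1 is not reported here; and the 3 nuclear receptors with the highest level. Further genes are named as neighbours in an order, as components or as chromosomal neighbours, chosen after their values were seen. No sequence is printed, and figures used matplotlib 3.10.9.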

Additional observations from a re-analysis of the deposited data

Results flagged for a closer look

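Of the 80 groups of 4 wells examined (the members, the named genes and the 3 ratios), 3 held 1 well set apart by Dixon's ratio (its gap to the nearest well over the group's range), where about 4 would be found by chance. None was a group of an NR4A gene. FOSL2 had 328 CPM in control replicate 3 against 252 to 262 in the other control wells, and CSRNP1 had 43.2 CPM in the same well against 33.2 to 34.7. NR4A1 was also highest in that control well, at 20.65 CPM against 10.2 to 13.0. LOC102154238 had 10.2 CPM in control replicate 1 against 8.998 to 9.11, the well with the highest control value of NR4A2, 2.75 CPM.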

How the results depend on the processing

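All 3 members kept a positive log2 change in every alternative that gave a value, from 0.82 to 1.78 for NR4A1, 0.60 to 0.92 for NR4A2 and 1.08 to 1.90 for NR4A3; NR4A3 has no value with at least 10 counts in every well, and DESeq2 with the replicate block left NR4A2 and NR4A3 without an adjusted p. NR4A1 passed with DESeq2 (1.28), limma-voom with the block (1.28) and no count filter with the block (1.27). NR4A2 passed only in that last fit (0.75). NR4A3 passed with the replicate block (1.5), with it and library size only (1.5) or no filter (1.5), with the block of 2 levels (1.5), and with the block without pair 3 (1.44); over omitted wells or pairs it ranged from 1.08 to 1.90. The unfiltered fit with the block gave NR4A1 an SE of 0.07 against 0.39 with the filter. The NR4A3 to NR4A1 ratio changed by 0.25 and reversed to -0.23 without control replicate 3, with a range up to 0.61 over omitted wells. The cause of these differences was not tested.

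The number of genes called was 0 in edgeR without the block and 102 with it. It was 40 with DESeq2, 145 with DESeq2 and the block, 122 with limma-voom and the block, 111 with library size only and the block, 58 with the block of 2 levels, 11 without the filter, 448 without it and with the block, and 51 and 25 within replicates 1 and 2 and replicates 3 and 4. It ranged from 0 to 12 over omitted wells and from 43 to 186 (43, 67, 186 and 74) over omitted pairs 1 to 4 with the block. In the same order, the early genes with CREB sites gave 0 and 4, then 6, 8, 9, 4, 3, 1, 18, 4 and 4, with 0 to 3 and 3 to 9. Reported NR4A targets gave 0, then 2 with the block, 3 each with DESeq2, limma-voom or library size only and the block, 1 with 2 levels, 6 without filter and with the block, 2 within replicates 1 and 2, and 0 to 4 over omissions. The inputs gave 1 with DESeq2 and the block and 2 without filter and with the block, where the partners gave 1; otherwise both gave 0, and the other nuclear receptors gave 0 throughout. Depth limits NR4A3 most, with 9 to 28 counts per control well.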

Other observations

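The 2 nearest protein-coding genes on each side of each member were taken by position, and those named here were picked from them with their values known. ATG101, 8875 bases beyond NR4A1, had 96.2 ± 1.77 CPM in control and 93.8 ± 5.84 in stretch wells (SD, n = 4), a log2 change of -0.04. TAMALIN, on the other side at 38222 bases, had a log2 change of 0.38 at about 1 CPM (edgeR with the block, adjusted p = 0.79). LOC102151535, 311 bases from NR4A2, had 0 CPM in both groups. GPD2, 78718 bases from NR4A2, had 205 ± 7.11 and 205 ± 3.79 CPM, and STX17, 38815 bases from NR4A3, had 16.2 ± 0.843 and 16.9 ± 0.685 CPM. None of the tested neighbours passed with or without the block in edgeR.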
